A study of Mus musculus with 6 samples.

Results

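The 34 genes described here mark the astrocyte lineage and its maturation. They were taken by name, as the rows of the expression table whose single gene symbol is on the list, with the row of highest mean over the 6 arrays for each gene. All 34 were measured, out of 19938 genes with a single symbol. Astrocytes of the spinal cord arise from radial glia, the progenitors that line the central canal, after these have made neurons. The transcription factors Sox9 and Nfia take part in that switch. Genes such as Aldh1l1 and Gja1 are on in radial glia and early astrocytes, whereas Gfap and Aqp4 are known from later astrocytes, which take up glutamate, buffer water and ions and cover blood vessels with their endfeet. Tenascin-C, the product of Tnc, is a matrix glycoprotein that radial glia and young astrocytes secrete.

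RNA came from mouse spinal cord, lumbar level, dissected at E15.5. The wild-type group held 3 samples and the TNC -/- group, here called knockout, held 3, all of strain SV129 and titled as biological replicates. The knockout is of the whole animal as far as the labels say, and the sources used here do not give the design of the allele, the number of embryos per sample or their litters. P-values therefore measure the spread between these samples. Each sample was hybridised to 1 array, and values are log2 signals after RMA, a method that corrects background, equalises the arrays' distributions and summarises the probes of a transcript. A difference of 1 on this scale is a doubling of signal, and levels of different genes are not compared because each gene has its own probes.

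The array medians lay between 6.96 and 7.10. Tnc, the targeted gene, read 10.72, 10.22 and 10.02 in the wild-type arrays and 9.64, 9.76 and 9.47 in the knockout arrays. The groups did not overlap. A two-sided exact permutation test gave p = 0.1, and no smaller value is possible with 3 arrays a group. The knockout signal was 61.8% of wild type, and all 3 knockout arrays stayed far above the background guide of 6.13 described next. The sources used here give neither the deleted part of the gene nor the place of its probes in it, so the Tnc signal is only a limited check of the labels. Xist, which female embryos express, read 11.60 to 12.25 in wild type and 11.68 in knockout replicate 2. The other two knockout arrays, replicates 1 and 3, read 5.44 and 5.38, and there the mean of 3 Y-linked genes read 8.20 and 7.86 against 4.32 to 4.48 elsewhere. The groups thus differed in sex too. One component held 49.0% of the variance over all genes, with wild-type replicates 1 and 3 at its ends. Along it the arrays of each genotype lay in the order of their replicate numbers. Above the background guide read 35 of 35 radial glial and gliogenic genes and 16 of 16 neuronal genes.

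As a guide to background, 1194 olfactory and vomeronasal receptor genes, which the spinal cord is not known to use, had a 95th percentile of 6.13. Of the 34 astrocyte genes, 32 had a mean above it (94.1%), against 73.7% of all genes. The 2 below were Cyp4f14, a lipid hydroxylase, with a mean of 5.73, and Gfap, a filament protein of mature astrocytes, with a mean of 5.95. Just above it were Gjb6 at 6.24, whose knockout mean of 6.07 lay below it, and Gpr37l1 at 6.41. The tissue thus gave signal for most of the list but not, by this guide, for its most used marker. In bulk tissue, fewer astrocytes and less RNA per astrocyte cannot be told apart.

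In the knockout arrays, the endfoot genes Aqp4 and Mlc1 read at 119.5% and 112.7% of the wild-type signal and the matricellular gene Sparcl1 at 107.6%, and in these 3 genes the groups did not overlap. Nor did they in the connexin gene Gjb6, which read lower in knockout, where its mean of 6.07 was not above the background guide. No member passed limma's test adjusted by Benjamini-Hochberg over all genes, where each adjusted p was 1 after rounding. Nor did any of the 19938 genes (0%), of which 339 had an unadjusted p under 0.05. Of the members 23 read higher and 11 lower. Their differences ran from -0.33 to 0.26, and their median was 0.05, against -0.01 over all genes, of which 46.4% read higher. The 4 members whose groups did not overlap made 11.8% of the list, against 5.82% of all genes. Of these, 3 were higher and 1 lower in knockout, where 3.18% of all genes lay apart and higher and 2.64% apart and lower. Without a sex term, an unadjusted limma p under 0.05 was reached by 3 members (8.82%), against 1.70% of all genes. Of these, 2 were higher and 1 lower, where the shares of all genes were 0.933% and 0.767%. That count was 4, 1 and 5 when wild-type replicate 1, 2 or 3 was left out, where 663, 256 and 1377 of all genes reached it. It was 2 when knockout replicate 1, 2 or 3 was left out, where 244, 220 and 296 of all genes did. The list was chosen with such results known, so these shares describe it and do not test it.

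**Figure D1:**
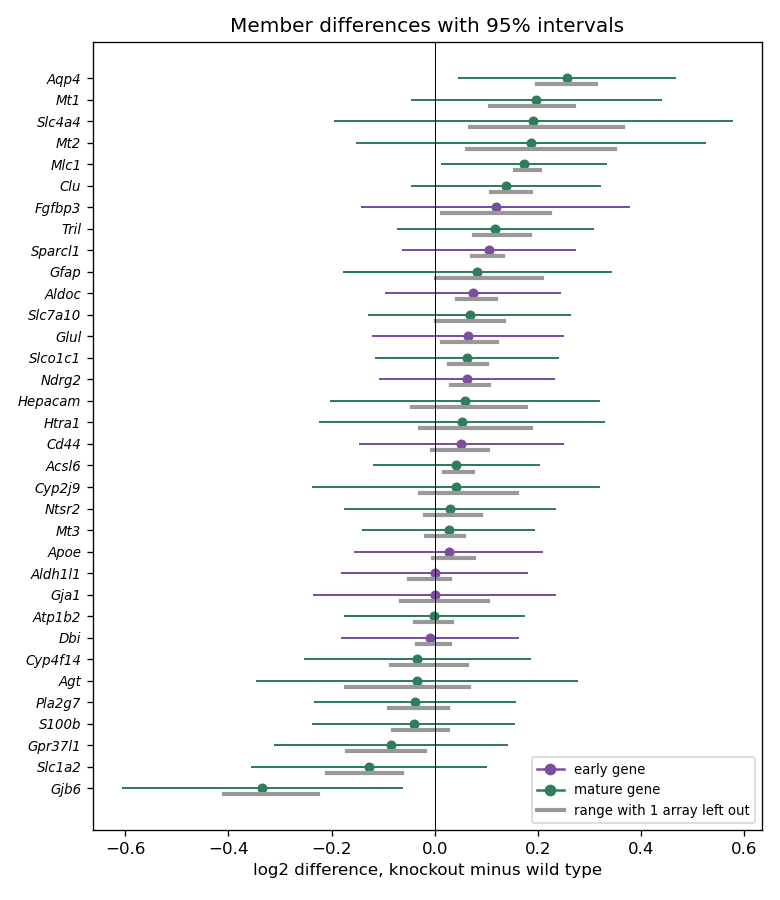
Difference of each of the 34 astrocyte genes on the log2 scale, knockout minus wild type (points), with limma's 95% interval (thin lines) and the range of the difference when 1 array is left out (grey bars). Only the intervals of Aqp4, Mlc1 and Gjb6 lie to one side of 0, and 31 of the 34 intervals lie within 0.5 of it.

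The intervals say what size of change these arrays leave room for. For 31 of 34 members the 95% interval lay wholly between -0.5 and 0.5, as it did for 18947 of all 19938 genes. The exceptions were Gjb6, Slc4a4 and Mt2. The members' standard deviation within groups had a median of 0.10, against 0.12 over all genes, and ran from 0.04 to 0.27. For 24 members the difference between groups was smaller than that deviation. The median size of the difference, without its sign, was 0.06 in the members and 0.05 over all genes, below the median deviation in each case.

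Of the 7 genes of water, ion and junction handling, 4 read higher and 3 lower in knockout. The groups did not overlap in 3 of the 7, Aqp4 and Mlc1 (higher) and Gjb6 (lower), where 5.82% of all genes lay apart in either direction. Aqp4 encodes the water channel of astrocyte endfeet. It read 7.80, 7.58 and 7.68 in wild type and 7.85, 8.06 and 7.92 in knockout. Every knockout array was above every wild-type array, with a gap of 0.05 between knockout replicate 1 and wild-type replicate 1. The difference was 0.26, with an interval from 0.05 to 0.47 and an unadjusted limma p of 0.0222. It lay between 0.20 and 0.31 when any 1 array was left out, and was 0.38 with a term for sex.

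Mlc1 encodes a membrane protein of endfeet that works with Hepacam. Its wild-type arrays were close together at 8.44, 8.41 and 8.41, and its knockout arrays read 8.63, 8.53 and 8.62. All 3 knockout arrays lay above the wild-type range. The difference was 0.17 (interval 0.01 to 0.33), with an unadjusted limma p of 0.0364. It lay between 0.16 and 0.20 with any 1 array left out, and was 0.11 with a term for sex, a fit in which knockout replicate 2 is the only knockout array set against wild type. Hepacam encodes the adhesion protein that binds Mlc1 and brings it to cell junctions. It read 9.85 to 9.93 in wild type but 9.97, 10.14 and 9.70 in knockout, so that the knockout arrays held both the highest and the lowest value. The Hepacam difference was 0.06 (interval -0.20 to 0.32), or 0.18 without knockout replicate 3 and -0.04 without knockout replicate 2. Its interval includes the Mlc1 difference, and the pair was not tested against each other.

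A pair of connexins couples astrocytes through gap junctions. Gjb6, which encodes connexin 30 and appears in later astrocytes, read 6.25, 6.62 and 6.34 in wild type and 6.12, 6.18 and 5.91 in knockout. All knockout arrays were lower, the gap being 0.08, and knockout replicates 1 and 3 lay below the background guide of 6.13. The difference was -0.33 (interval -0.60 to -0.06), with an unadjusted limma p of 0.0212, and as the knockout mean was not above the guide its size is uncertain. With the sex term the Gjb6 difference was -0.23. Gja1, which encodes connexin 43 and is on from radial glia onward, had the same mean of 9.98 in both groups. It read 9.85, 10.19 and 9.91 in wild type and 10.03, 10.001 and 9.91 in knockout, and wild-type replicate 2 was highest for both connexins. The interval of the Gja1 difference ran from -0.23 to 0.23.

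Of the ion transporters, Slc4a4, the sodium bicarbonate cotransporter, varied most of all members within groups. It read 10.04, 9.47 and 9.55 in wild type and 9.70, 10.12 and 9.81 in knockout. Wild-type replicate 1 and knockout replicate 2 stood high together, so that its difference was 0.19 (interval -0.19 to 0.58), or 0.07 without knockout replicate 2 and 0.37 without wild-type replicate 1. It was 0.44 with the sex term and 0.46 with arrays weighted by their spread. The same 2 arrays were the highest for Cyp2j9, Atp1b2, Glul and Pla2g7. This pair of arrays was on top for 5 of 34 members (14.7%) and for 5.78% of all genes. Atp1b2, the sodium pump subunit first named as an adhesion molecule on glia, read 11.61 ± 0.06 in knockout against 11.61 ± 0.07 in wild type (SD, n = 3 each).

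**Figure D2:**
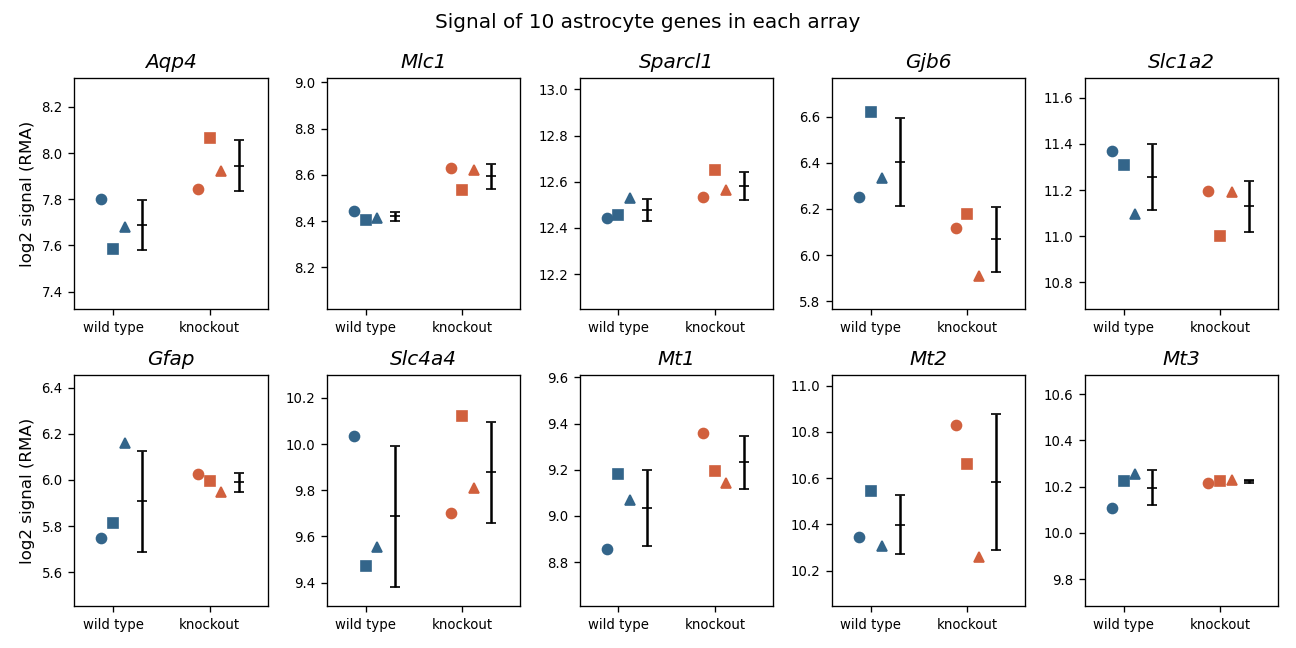
Log2 signal of 10 astrocyte genes in each wild-type array (blue) and knockout array (orange), with circles, squares and triangles for replicates 1, 2 and 3 and black bars for the mean and SD of each group. Each panel spans 1 log2 unit. The groups do not overlap for Aqp4, Mlc1, Sparcl1 and Gjb6, but for Sparcl1 knockout replicate 1 and wild-type replicate 3 nearly coincide. Slc4a4 is high in wild-type replicate 1 and knockout replicate 2, and Mt3 reads between 10.11 and 10.25 throughout.

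In the 3 cytoskeletal and surface markers the groups overlapped. Gfap read 5.75, 5.82 and 6.16 in wild type and 6.03, 6.00 and 5.95 in knockout. Only wild-type replicate 3 passed the background guide, and the knockout arrays lay inside the wild-type range. S100b, a calcium-binding protein of maturing astrocytes, read 6.86, 6.88 and 7.07 in wild type and 6.95, 6.91 and 6.83 in knockout. These groups overlapped, and the interval of the difference ran from -0.24 to 0.15. Cd44, the hyaluronan receptor found on astrocyte precursors, read 7.06 ± 0.09 in knockout against 7.01 ± 0.10 in wild type (SD, n = 3 each).

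In the 5 genes of glutamate, folate and sugar metabolism the groups overlapped, with differences from -0.13 to 0.07. Aldh1l1, the folate enzyme widely used as an astrocyte marker, read 9.80, 9.85 and 9.91 in wild type and 9.81, 9.96 and 9.79 in knockout. The group means were both 9.86 after rounding, and the interval of the difference allows a knockout signal from 88.3% to 113.2% of wild type. Aldoc, the brain aldolase, read 12.33, 12.31 and 12.36 in wild type and 12.32, 12.47 and 12.43 in knockout. Knockout replicates 2 and 3 were the highest arrays and knockout replicate 1 lay among the wild-type arrays.

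Glul, the glutamine synthetase, read 11.67, 11.55 and 11.46 in wild type and 11.60, 11.68 and 11.61 in knockout, and its difference was 0.06. A second transcript cluster with this symbol read 11.26 in wild type and 11.29 in knockout, a difference of 0.03. Which of these clusters lies at the Glul gene itself was not checked. Slc1a2, the glutamate transporter that astrocytes gain as they mature, stood the other way at 11.37, 11.31 and 11.10 in wild type and 11.20, 11.00 and 11.19 in knockout. Its 2 highest arrays were wild type and its lowest was knockout replicate 2, but wild-type replicate 3 lay below 2 knockout arrays. The difference was -0.13 (interval -0.35 to 0.10). Leaving out wild-type replicate 3 made it -0.21, and leaving out knockout replicate 2 made it -0.06. With the sex term it was -0.26. Slc7a10, a transporter of small neutral amino acids, read 8.91 ± 0.01 in knockout against 8.84 ± 0.13 in wild type (SD, n = 3 each).

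Among secreted proteins, Sparcl1, a matricellular protein known from radial glia and astrocytes, read 12.44, 12.46 and 12.53 in wild type and 12.53, 12.65 and 12.56 in knockout. The groups did not overlap, but knockout replicate 1 and wild-type replicate 3 were equal to 2 decimals. The difference was 0.11, with an interval from -0.06 to 0.27 and an unadjusted limma p of 0.182. With the sex term it was 0.17. Fgfbp3, which binds fibroblast growth factors, differed by 0.12, or by 0.01 without wild-type replicate 1, whose value of 9.38 was the lowest of the 6, and by 0.22 without wild-type replicate 3. Agt, the angiotensin precursor, and Htra1, a secreted serine protease, differed by -0.04 and 0.05, each with wild-type and knockout arrays interleaved.

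The lipid genes gave no separation of groups. Clu, or clusterin, a lipid-carrying chaperone, differed by 0.14 with an interval from -0.04 to 0.32, and its 2 highest arrays were knockout replicates 1 and 2. Apoe, the main lipid carrier made by astrocytes and also by macrophages, read 10.89 ± 0.09 in knockout against 10.86 ± 0.06 in wild type (SD, n = 3 each). Pla2g7, the phospholipase that degrades platelet-activating factor, read 10.41, 10.33 and 10.29 in wild type and 10.34, 10.40 and 10.18 in knockout. The highest of these 6 values was in wild-type replicate 1 and the lowest in knockout replicate 3. Acsl6, which activates fatty acids, differed by 0.04 and its wild-type arrays lay within 0.01 of each other. The differences of Dbi, the acyl-CoA binding protein, Cyp2j9, an arachidonic acid oxidase, and Cyp4f14 were -0.01, 0.04 and -0.03.

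Of receptors, transporters and signalling proteins, Gpr37l1, an orphan receptor of glia, read 6.46, 6.36 and 6.53 in wild type and 6.23, 6.33 and 6.54 in knockout. Its lowest 2 arrays were knockout and its highest was knockout as well, and the difference was -0.08. Tril, which takes part in toll-like receptor signalling, differed by 0.12, with knockout replicates 2 and 3 above every other array. Ndrg2, a cytosolic protein abundant in astrocytes, and Slco1c1, a thyroid hormone transporter shared with brain endothelium, each differed by 0.06. Ntsr2, the neurotensin receptor of astrocytes, differed by 0.03. All intervals in this group included 0.

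Metallothioneins bind zinc and copper. Mt1 and Mt2 are induced by metals, stress and glucocorticoids, whereas Mt3 is the form of the nervous system and is not induced in that way. Stretches of 250 bases before the RefSeq starts of these genes (assembly GRCm38.p6, plus strand) are shown because the 3 genes are neighbours on chromosome 8 and differ in known inducibility. They lie at chr8:94178839-94179088 for Mt1, chr8:94172368-94172617 for Mt2 and chr8:94152357-94152606 for Mt3. Capitals mark matches to the letters TGCACNC or TGCGCNC, the core of the metal response element, on either strand and with overlapping matches counted separately.
Mt1: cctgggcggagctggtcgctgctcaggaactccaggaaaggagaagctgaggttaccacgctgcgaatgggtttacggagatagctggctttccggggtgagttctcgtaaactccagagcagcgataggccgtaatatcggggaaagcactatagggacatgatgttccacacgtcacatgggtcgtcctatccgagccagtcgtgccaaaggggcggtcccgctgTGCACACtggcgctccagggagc
Mt2: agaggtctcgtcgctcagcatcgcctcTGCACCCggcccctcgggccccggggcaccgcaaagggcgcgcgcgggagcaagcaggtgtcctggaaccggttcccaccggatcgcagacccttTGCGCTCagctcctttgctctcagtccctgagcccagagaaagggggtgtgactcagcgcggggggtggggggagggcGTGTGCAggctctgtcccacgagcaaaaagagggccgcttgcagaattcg
Mt3: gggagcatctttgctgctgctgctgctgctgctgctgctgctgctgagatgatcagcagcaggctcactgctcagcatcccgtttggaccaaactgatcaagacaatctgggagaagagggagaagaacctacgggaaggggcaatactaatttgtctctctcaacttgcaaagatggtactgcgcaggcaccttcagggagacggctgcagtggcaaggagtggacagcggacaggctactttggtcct

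The Mt1 stretch held 1 match, starting 23 bases before the start, the Mt2 stretch held 3, at 223, 128 and 50 bases before it, and the Mt3 stretch held 0. At least 1 match occurred in 21.4% of 32851 such windows in the RefSeq table, and at least 3 in 1.26%. Windows were found for 30 of the 34 members, of which 10 held at least 1 match. Members were counted as genes, with a match in any window of the gene, so this count and the share of windows differ in unit. Letters outside these stretches, those after the annotated start included, were not searched, so the counts are not those of whole promoters. A match describes letters only and says nothing of binding.

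In the arrays, Mt1 read 8.86, 9.18 and 9.07 in wild type and 9.36, 9.19 and 9.14 in knockout. Knockout replicate 1 was highest, and wild-type replicate 2 lay above knockout replicate 3, so the groups overlapped. The Mt1 difference was 0.20 (interval -0.04 to 0.44). Leaving out wild-type replicate 1 made it 0.11. Mt2 read 10.34, 10.54 and 10.31 in wild type and 10.83, 10.66 and 10.26 in knockout. Knockout replicates 1 and 2 were its highest arrays, as they were for Mt1, and knockout replicate 3 was its lowest. The Mt2 difference was 0.19 (interval -0.15 to 0.52). Leaving out knockout replicate 1 made it 0.06, and leaving out knockout replicate 3 made it 0.35. Mt3 read 10.11, 10.22 and 10.25 in wild type and 10.22, 10.22 and 10.23 in knockout, a difference of 0.03. The range over the 6 arrays was thus widest for Mt2 and narrowest for Mt3, and no metallothionein separated the groups. The 3 intervals overlapped, and differences between the 3 genes were not tested.

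The members were also split by stage. As early genes, on in radial glia or the first astrocytes, 10 were taken (Aldh1l1, Aldoc, Apoe, Cd44, Dbi, Fgfbp3, Gja1, Glul, Ndrg2 and Sparcl1), and the other 24 counted as mature. The split follows general knowledge, and several genes could stand on either side. Of early genes 7 read higher and 3 lower in knockout, the median difference being 0.06 and the range -0.01 to 0.12. Of mature genes 16 read higher and 8 lower, the median being 0.05 and the range -0.33 to 0.26. The medians of the stages thus lay within 0.01 of each other. The mature genes spread further in both directions, but they are more numerous and include the members nearest the background guide. The closeness of the medians varied with the setting. The early and mature medians were 0.01 and 0.04 without wild-type replicate 1, 0.10 and 0.07 with the sex term, and 0.04 and 0.08 with array weights. The groups did not overlap in 3 of 24 mature genes and in 1 of 10 early genes, Sparcl1, against 5.82% of all genes. These counts are too small to compare the stages. The within-group standard deviation had a median of 0.08 for early and 0.11 for mature genes. Of the 2 members below the background guide, Gfap differed by 0.08 and Cyp4f14 by -0.03, and both intervals included 0.

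**Figure D3:**
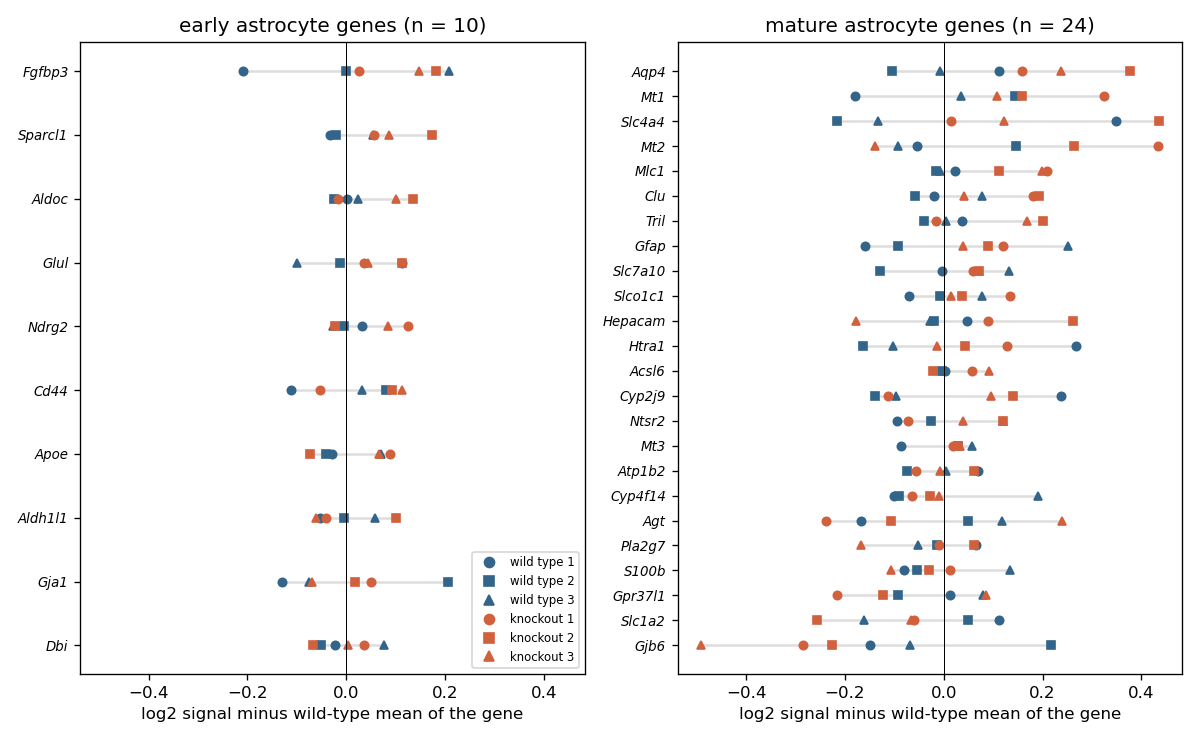
Log2 signal of each astrocyte gene in each array minus the wild-type mean of that gene, for 10 early genes (left) and 24 mature genes (right), ordered by the difference between groups. Wild-type arrays are blue and knockout arrays orange, with a marker shape per replicate. For most genes the colours interleave, and the widest spreads are those of Slc4a4, Gjb6 and Mt2.

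The array with the highest or lowest value differed between members, and the part of single arrays was not tested. Knockout replicate 2, the knockout array with high Xist, was the highest array for 9 members (26.5%), against 8.73% of all genes. Wild-type replicates 1 and 2 were the lowest for 10 members each, or 29.4%, against 29.0% and 12.4% of all genes. For wild-type replicate 1 the share of members was thus close to that of all genes. With each array left out in turn, 19 members kept the sign of their difference and 15 did not. Only Aqp4, Mlc1, Gjb6, Sparcl1 and Clu kept both their sign and a size within 1.5 times of the first value. The number of members reading higher ran from 21, without wild-type replicate 1, to 28, without wild-type replicate 3.

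Radial glial and gliogenic genes, from which the astrocyte lineage descends, gave 21 of 35 higher and 14 lower (median 0.03). Of these genes 0 reached an unadjusted limma p under 0.05. The groups did not overlap in 2 of the 35, each higher in knockout (3.18% of all genes). Bcan, a proteoglycan of glial matrix, read 10.17 ± 0.04 in knockout against 9.997 ± 0.106 in wild type (SD, n = 3 each), with groups that did not overlap and an unadjusted limma p of 0.0561. Nkx6-1, a ventral progenitor factor, differed by 0.25, or by 0.07 without wild-type replicate 1. The glial switch factors Sox9 and Nfia differed by 0.02 and -0.01.

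Markers of other cell types gave these values, with no gene past the adjusted test. All 19 of 19 measured genes of endothelium and pericytes read higher in knockout, with a median of 0.14, and 18 of them lay above the background guide. Their mean level ran from 8.48 to 8.64 in wild type and from 8.60 to 8.81 in knockout, highest in knockout replicate 2, where Aqp4 and Sparcl1 were highest as well. The groups did not overlap in 5 of the 19, all higher in knockout (3.18% of all genes), and 4 had an unadjusted limma p under 0.05 (0.933% of all genes). The 2 of smallest p were Vtn, which pericytes make, at 0.47 with an interval from 0.21 to 0.73, and Esam, an endothelial adhesion molecule, at 0.19. In knockout replicates 1 and 2 the endothelial mean, at 8.69 and 8.81, lay above every wild-type array. In knockout replicate 3, at 8.60, it lay above wild-type replicates 1 and 2 and below wild-type replicate 3. Aqp4 and Mlc1 were above every wild-type array in each knockout array. The part of endothelial markers in the Aqp4, Mlc1 and Slco1c1 values was not tested. Neuronal genes gave 12 of 16 higher with a median of 0.06, close to the median of the astrocyte genes. In 3 of the 16 neuronal genes the groups did not overlap, all higher in knockout (3.18% of all genes). None reached an unadjusted limma p under 0.05. Their leading genes Gad1, which makes GABA, and Elavl4, an RNA-binding protein, differed by 0.14 and 0.11.

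**Figure D4:**
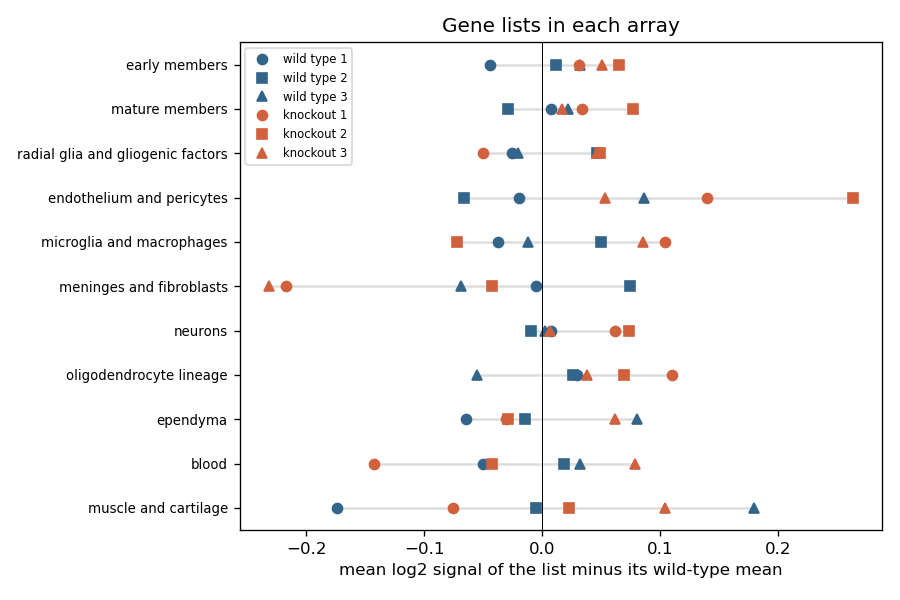
Mean log2 signal of each gene list in each array minus the wild-type mean of that list, with wild-type arrays in blue, knockout arrays in orange and a marker shape per replicate. The early and mature astrocyte genes lie within 0.1 of 0 in every array, the endothelial list is highest in knockout replicate 2, and the meningeal list is lowest in knockout replicates 1 and 3.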

How the data were processed

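Lumbar spinal cord RNA of 3 wild-type and 3 knockout embryo samples was measured on 6 arrays. The authors deposited log2 signals. The submitters' processing notes name RMA, without a version. Its quantile step would hide a shift common to all genes. The table held 35557 transcript clusters, of which the platform annotation paired 21789 with 1 symbol, 1621 with several and left 12147 unlisted. Symbols were updated through RefSeq (19856 of 19938 genes matched). For the 999 genes with several clusters the one of highest mean was used, with no filter on dim genes.

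Groups were compared with limma 3.58.1 in R 4.3.3 (lmFit and eBayes, group as the only term), two-sided, with Benjamini-Hochberg adjustment over all genes at 0.05, and for Tnc by an exact permutation test. The fit was tested on simulated data. Members, stages and lists were chosen with earlier results of these data known. Values in every array are given for members whose groups do not overlap, the 5 largest differences each way above the guide and 12 members fixed by name. From each other list at most the 2 genes of smallest p are named by rule, and Sox9 and Nfia were added by name. Lists covered radial glia, endothelium and pericytes, microglia, meninges, neurons, oligodendrocytes, ependyma, blood, and muscle with cartilage. Alternatives were each array left out, a replicate block, a sex term, a level filter, an intensity trend, array weights, 2 renormalizations, 2 rules for several clusters and a guide of 7. Precision is limited by the number of arrays. Figures were drawn with matplotlib 3.10.9.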

Additional observations from a re-analysis of the deposited data

How the results depend on the processing

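No member passed the adjusted test under any of the 15 alternatives. Over all genes the count past the test was 0 to 4 with 1 array left out (4, without knockout replicate 2) and 0 otherwise. Tnc differed by -0.845 to -0.494 with 1 array left out. The median of the members was 0.031 to 0.059 with 1 array left out and 0.080 with a sex term. The early median was 0.013 to 0.060, and 0.097 with a sex term. The mature median was 0.027 to 0.059, and 0.084 with array weights. With the members split by their mean over all arrays, the medians above and below the guide were 0.052 and 0.025, and with a guide of 7 they were 0.062 and -0.034. Array weights did not reach their convergence limit and gave wild-type replicate 2 a weight of 6.39. They put 13 members and 4181 genes under an unadjusted p of 0.05, with a smallest adjusted p among members of 0.0726. The labels do not say whether the replicate numbers pair the arrays. Deviations from the group means correlated at 0.345, -0.075 and 0.449 between arrays of the same number. Between arrays of unlike number the correlations ran from -0.47 to 0.283. Whether the numbers mark a pairing was not tested. With a replicate block no member passed, 2 members and 636 genes had an unadjusted p under 0.05, and the medians stayed at 0.052, 0.056 and 0.047.

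Some members near 0 changed sign. With 1 array left out their ranges were -0.051 to 0.030 for Aldh1l1, -0.082 to 0.027 for S100b, -0.065 to 0.102 for Gja1, -0.004 to 0.077 for Apoe, -0.018 to 0.089 for Ntsr2, -0.005 to 0.103 for Cd44, -0.173 to 0.066 for Agt, -0.044 to 0.176 for Hepacam, -0.029 to 0.186 for Htra1, -0.029 to 0.160 for Cyp2j9, -0.038 to 0.034 for Atp1b2, -0.088 to 0.026 for Pla2g7, -0.084 to 0.062 for Cyp4f14, -0.017 to 0.056 for Mt3 and -0.035 to 0.029 for Dbi. The sex term, which leaves 1 knockout array, gave 0.101 for Aldh1l1, 0.017 for Gja1, -0.074 for Apoe, -0.023 for Acsl6 and Ndrg2, 0.061 for Atp1b2 and 0.060 for Pla2g7. Array weights gave 0.041 for Aldh1l1, 0.012 for S100b, -0.004 for Cd44, 0.084 for Atp1b2, 0.008 for Pla2g7, 0.048 for Cyp4f14 and 0.016 for Dbi. Renewed quantile normalization gave 0.002 for Aldh1l1. Of 508 comparisons of a member with an alternative, 42 changed sign, and the cause was not tested.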

Other observations

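Other cell types of the tissue gave these values, all without a gene past the adjusted limma test. Oligodendrocyte lineage genes read higher in 11 of 15 cases with a median of 0.07, led by the precursor factors Nkx2-2 (0.30) and Olig2 (0.24). In 3 of the 15 the groups did not overlap, all higher in knockout (3.18% of all genes). Of the 15, 2 had an unadjusted limma p under 0.05, Nkx2-2 and Olig2 (0.933% of all genes, higher in knockout). Microglial and macrophage genes read higher in 12 of 16 cases with a median of 0.07. Their genes of smallest p were Aif1 at -0.19, below the background guide in both groups, and the lysosomal gene Laptm5 at 0.13. Meningeal and fibroblast genes read lower in 13 of 15 cases with a median of -0.15, and their mean level was 7.54 to 7.69 in wild type and 7.38 to 7.57 in knockout. Of these, the collagen-binding proteoglycan Lum differed by -0.30, below the background guide, and its relative Dcn by 0.38. The groups did not overlap in 1 of 16 microglial and 1 of 15 meningeal genes, each lower in knockout (2.64% of all genes).

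Ependymal genes read higher in 5 of 8 cases (median 0.02, Rarres2 at -0.15 and Ak7 at 0.11), and blood genes in 1 of 5 cases (median -0.07, Hbb-bh1 at -0.14, below the background guide in both groups, and Slc4a1 at 0.11). Muscle and cartilage genes, of which 7 of 11 lay above the background guide, read higher in 6 of 11 cases with a median of 0.01, with Acta1 at 0.16 and Acan, below the background guide in both groups, at 0.10. Their mean level was lowest in wild-type replicate 1 at 6.54 and highest in wild-type replicate 3 at 6.89, the arrays at the ends of the leading component.

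Among the 5 motifs searched in the 250 bases before gene starts, the STAT letters TTCCNGGAA were found for 2 of 30 members with a window, Agt and Aldoc, and in 0.913% of all windows. The shorter nuclear factor I letters TTGGCA were found for 5 of 30 members and in 12.3% of all windows. The full nuclear factor I site was found for 0 of 30 members and in 0.0365% of all windows. Members were again counted as genes with a match in any window, against shares of single windows, so the units differ. Both strands were searched, and no test was made of these shares.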
